A study of Mus musculus with 24 samples.

Results

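The dystrophin-sarcoglycan complex was followed through 8 genes, *Dmd*, *Utrn*, *Dag1*, *Sgca*, *Sgcb*, *Sgcd*, *Dtna* and *Sspn*, of the 14912 genes in the deposited table. They were chosen by name as components of the complex, though with earlier results of these data known. All 8 were found, passed the filter on low values and held 0 negative values. RNA-seq of the left ventricle compared a hypertensive-LVH group of 12 samples with a control group of 12. The hypertensive-LVH group was infused with angiotensin II (ANG II), a hormone that raises blood pressure, at 1500 ng/kg/min for 7 days by osmotic mini-pumps under the skin. Control mice received saline for 7 days. All mice were male, wild-type C57BL/6J animals, and their hearts were flushed with saline before the tissue was taken. The sources used here do not give their age. The study sequenced 16 biological replicates per group, and 4 of each were not analysed here.

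Dystrophin is a long rod-shaped protein beneath the cardiomyocyte membrane, the sarcolemma. It ties actin filaments inside the cell to dystroglycan, which crosses the membrane and holds laminin in the basement membrane outside. The sarcoglycans and sarcospan surround dystroglycan and hold the assembly in place, while dystrobrevin and the syntrophins carry signaling proteins to it. Loss of dystrophin causes Duchenne muscular dystrophy, in which the heart also fails, and loss of a sarcoglycan causes limb-girdle muscular dystrophy.

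Of the 8 members, *Dmd* (dystrophin) and *Sgcd* (delta-sarcoglycan) were upregulated in the hypertensive-LVH group and *Sspn* (sarcospan) was downregulated, all by less than the fold change the study asks of a differentially expressed gene (DEG). These calls were close to the threshold, and none of the 3 held once the set of samples was added as a term. The starts of these genes are shown because they are the members called in the comparison of the groups. Each sequence holds 250 bases before and 50 after a transcription start given by RefSeq on GRCm38.p6, read 5′ to 3′ on the strand of the gene. *Dmd* is at chrX:82948620-82948919 on the plus strand, *Sgcd* at chr11:47379276-47379575 on the minus strand, and *Sspn* at chr6:145931623-145931922 on the plus strand. Capitals mark matches to the CArG box (bound by serum response factor), the MEF2 site, the GC box GGGCGG or the TATA box TATAAA, on either strand.
Dmd: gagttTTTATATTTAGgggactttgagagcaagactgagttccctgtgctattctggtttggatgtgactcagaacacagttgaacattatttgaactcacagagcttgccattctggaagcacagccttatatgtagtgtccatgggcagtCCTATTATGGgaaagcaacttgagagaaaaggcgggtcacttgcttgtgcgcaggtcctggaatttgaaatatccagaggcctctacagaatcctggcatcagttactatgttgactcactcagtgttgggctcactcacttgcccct
Sgcd: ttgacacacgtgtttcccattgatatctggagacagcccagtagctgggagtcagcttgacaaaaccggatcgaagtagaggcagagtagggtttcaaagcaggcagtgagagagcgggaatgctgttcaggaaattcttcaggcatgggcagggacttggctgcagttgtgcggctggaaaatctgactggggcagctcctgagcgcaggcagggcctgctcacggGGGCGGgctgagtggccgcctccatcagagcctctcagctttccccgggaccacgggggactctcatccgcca
Sspn: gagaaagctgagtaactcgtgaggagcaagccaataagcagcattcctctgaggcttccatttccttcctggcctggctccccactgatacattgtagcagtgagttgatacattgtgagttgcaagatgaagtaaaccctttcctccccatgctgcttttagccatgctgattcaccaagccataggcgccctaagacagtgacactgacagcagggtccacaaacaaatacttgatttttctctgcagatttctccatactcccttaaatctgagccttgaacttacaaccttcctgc

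The *Dmd* window held a CArG box whose first base was at -98 from the start, and such a box was in 1.63% of 32851 RefSeq promoter windows of the same length. It also held a MEF2 site at -244, a motif in 3.19% of the windows, and the match to TATAAA at -245 (13.6% of windows) overlapped it. The *Sgcd* window held a GC box at -23, which 35.7% of windows have. The myogenic E-box CAGCTG was in 0 of these 3 windows, against 16.3% of all windows, and the *Sspn* window held 0 matches to the CArG box, MEF2 site, GC box and TATA box. RefSeq also gives another window each for *Dmd* (chrX:85048045-85048344) and *Sspn* (chr6:145933872-145934171), which are not shown. That of *Dmd* held 3 GC boxes and 0 matches to the CArG box, MEF2 site or TATA box. That of *Sspn* held 0 matches to any of them. A match of letters describes the window and is not a measured binding site. In the GENCODE annotation of GRCm38, *Dmd* covers chromosome X from 82948870 to 85206141 on the plus strand with 79 exons in its longest transcript. *Sgcd* covers chromosome 11 from 46896253 to 47988969 on the minus strand, so the RefSeq start shown lies inside the annotated gene. *Sspn* covers chromosome 6 from 145931641 to 145965223 on the plus strand, and the RefSeq start shown lies inside it too. The build used by the authors is not given in the sources used here, and these coordinates are those of the annotations.

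The values were deposited as FPKM, the fragments of a gene scaled by transcript length and by the mapped fragments of the sample, so levels can be compared between genes. They were not plain FPKM, since 2741 values of the table (0.766%) were negative. Exact ties between samples of a group divided the samples into 4 sets (samples numbered 1 to 3, then 4 to 6, 7 to 9 and finally 10 to 12), each with both groups, within which each gene had been shifted and scaled. Per sample the values summed to between 482319 and 567727 among controls and to between 460715 and 515185 among hypertensive-LVH samples, and the number of reads behind them is unknown. Cardiomyocyte RNA was plentiful in every sample, with 11 cardiomyocyte markers summing to between 38427 and 64317 FPKM. The skeletal muscle markers in the table (5 of 8 listed) summed to between 3.02 and 15.6 FPKM. Of 6 genes known to rise in hypertrophy, 5 were upregulated in the hypertensive-LVH group, against 20.9% of all genes tested. Among these 6, *Nppa* held 7 negative values, *Myh7* 3 and *Nppb* 1, all set to 0 in the test.

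*Dag1* (dystroglycan) was the most abundant member, with 147 FPKM over all 24 samples, followed by *Sgca* (alpha-sarcoglycan) with 120.3 FPKM. *Sspn* had 61.7 FPKM, *Sgcb* (beta-sarcoglycan) 43.0 and *Dtna* (alpha-dystrobrevin) 28.1. *Dmd* had 23.1 FPKM, *Utrn* (utrophin, the relative of dystrophin) 16.6 and *Sgcd* 12.2. This order held for every neighbouring pair in all 24 samples, apart from 2 pairs. *Dag1* exceeded *Sgca* in 11 of 12 control samples and in 12 of 12 of the hypertensive-LVH group. *Dtna* exceeded *Dmd* in 12 of 12 control samples and in 10 of 12 of the hypertensive-LVH group. Thus *Dag1* and *Sgca* in the control group, and *Dtna* and *Dmd* in the hypertensive-LVH group, were the neighbours whose order was not the same in every sample.

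**Figure D1:**
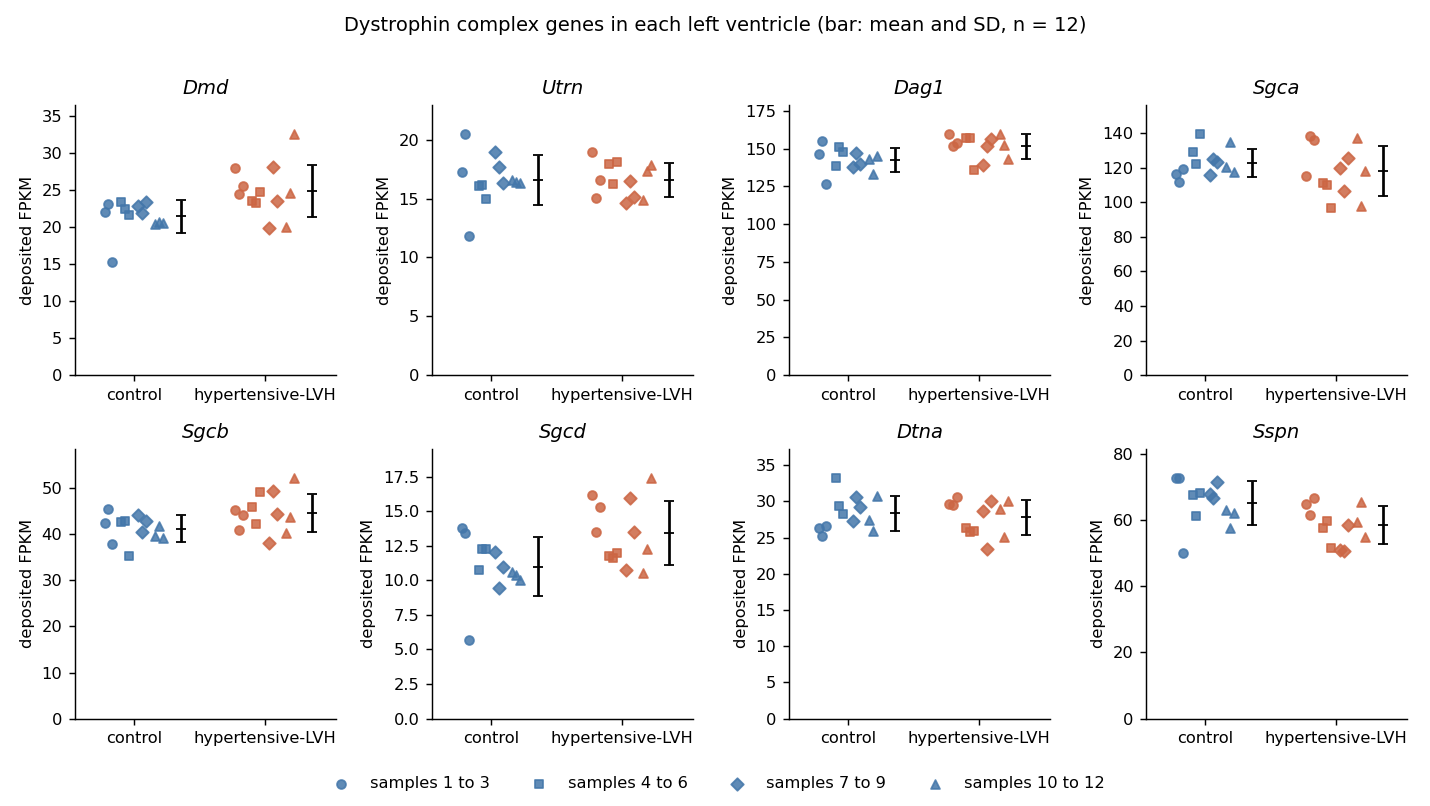
Each panel plots the deposited FPKM of 1 gene on a linear axis from 0, with 12 control samples in blue and 12 hypertensive-LVH samples in orange, marker shapes for the 4 sets of samples, and a bar for the mean and SD. *Dmd* exceeded the whole control range in 9 hypertensive-LVH samples, *Sspn* lay below the control median in all 12, and control 3 was the lowest control for *Dmd*, *Utrn*, *Dag1*, *Sgcd* and *Sspn*.

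The comparison asked which genes of the left ventricle differ in hypertensive LVH. With limma on log2(FPKM + 1), 3 of the 8 members passed an adjusted p under 0.05, and 33.5% of the 14026 genes tested did. For higher genes the counts were 2 of 8 members against 20.9% of all genes, and for lower genes 1 of 8 against 12.6%. The study's DEG criteria also ask for a log2 fold change beyond 0.5, and 0 of 8 members met them against 5.92% of all genes. Without that fold threshold, 5 of the 8 members had an unadjusted p under 0.05 against 44.7% of all genes, and an exact rank-sum test called 3 against 29.7%. The median log2 fold change of the members was 0.05 and that of all genes tested was 0.05. The share of members called was therefore close to the share of all genes. RNA of a whole ventricle cannot tell fewer cells of a type from less RNA per cell.

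*Dmd* encodes the rod that links actin to dystroglycan. It ranged from 15.2 to 23.4 FPKM in the control group (median 21.9) and from 19.8 to 32.5 FPKM in the hypertensive-LVH group (median 24.5). The groups overlapped, but 9 of 12 hypertensive-LVH samples lay above all control samples and 10 of 12 above the control median. The means were 21.4 ± 2.23 FPKM (SD, n = 12) in the control group and 24.8 ± 3.50 FPKM (SD, n = 12) in the hypertensive-LVH group. *Dmd* was upregulated by a log2 fold change of 0.20 (SE 0.070, adjusted p = 0.0337), or 1.15-fold on the log2(FPKM + 1) scale. The hypertensive-LVH samples 7 and 10 had the lowest values of their group, within the control range, and hypertensive-LVH 12 had the highest.

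The call for *Dmd* was lost when any of 4 samples was left out. The limma adjusted p was 0.0546 without control 3, 0.0592 without hypertensive-LVH 1, 0.0610 without hypertensive-LVH 8 and 0.0563 without hypertensive-LVH 12. In the other 20 such fits *Dmd* was called, and its log2 fold change stayed between 0.15 and 0.22 in all 24.

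*Utrn* encodes the protein that stands in for dystrophin in muscle without it, and it takes the same place in fetal muscle. It ranged from 11.8 to 20.5 FPKM in the control group (median 16.4) and from 14.6 to 18.9 FPKM in the hypertensive-LVH group (median 16.6). All hypertensive-LVH samples lay within the control range. The means were 16.6 ± 2.09 FPKM and 16.6 ± 1.45 FPKM (SD, n = 12 each). The log2 fold change was 0.01, with a 95% interval from -0.12 to 0.13 (SE 0.062, limma adjusted p = 0.940), and it was -0.02 after median-ratio scaling and -0.05 after quantile normalization. The ratio of *Utrn* to *Dmd* was 0.774 ± 0.0617 in the control group and 0.676 ± 0.0674 in the hypertensive-LVH group (SD, n = 12 each), a description with no test. It was below 1 in all 24 samples.

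*Dag1* encodes the precursor that is cut into alpha-dystroglycan outside the cell and beta-dystroglycan in the membrane. It ranged from 126 to 155 FPKM in the control group (median 144) and from 136 to 159.5 FPKM in the hypertensive-LVH group (median 153). Among the hypertensive-LVH samples, 9 of 12 lay above the control median and 5 above all controls. The difference did not pass the threshold over all genes (log2 fold change 0.09, SE 0.036, limma adjusted p = 0.0683). It passed without control 2 (adjusted p = 0.0369), without hypertensive-LVH 6 (adjusted p = 0.0348), without hypertensive-LVH 7 (adjusted p = 0.0384), and in an exact rank-sum test (adjusted p = 0.0427).

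Of the 3 sarcoglycans among the members, *Sgcd* alone passed the test. It encodes delta-sarcoglycan, which with beta-sarcoglycan forms the core on which the other sarcoglycans assemble. It ranged from 5.72 to 13.8 FPKM in the control group (median 10.9) and from 10.5 to 17.4 FPKM in the hypertensive-LVH group (median 12.9). The groups overlapped, with 4 hypertensive-LVH samples above all controls and 4 controls below all hypertensive-LVH samples. The means were 11.0 ± 2.13 and 13.4 ± 2.30 FPKM (SD, n = 12 each). *Sgcd* was upregulated by a log2 fold change of 0.27 (SE 0.103, limma adjusted p = 0.0429), the largest of the 8 members. Control 3, at 5.72 FPKM, was far below the next control at 9.45 FPKM.

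The call for *Sgcd* was close to the threshold, and 13 of the 24 fits that left out 1 sample lost it, with adjusted p up to 0.0752. These were the fits without control 3, 4, 8, 9, 10, 11 or 12 and without hypertensive-LVH 1, 2, 3, 8, 9 or 12. Without control 3 the log2 fold change was 0.20 (limma adjusted p = 0.0595), and in the 24 fits it stayed between 0.20 and 0.30.

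*Sgcb*, for beta-sarcoglycan, ranged from 35.3 to 45.5 FPKM in the control group (median 42.1) and from 38.1 to 52.3 FPKM in the hypertensive-LVH group (median 44.3). Of the hypertensive-LVH samples, 9 lay above the control median and 4 above all controls. The log2 fold change of 0.11 did not pass the threshold (SE 0.048, limma adjusted p = 0.0737). Leaving out control 2 (adjusted p = 0.0461), hypertensive-LVH 7 (adjusted p = 0.0296) or hypertensive-LVH 10 (adjusted p = 0.0480) brought it past. *Sgca*, for alpha-sarcoglycan, ranged from 111.5 to 139 FPKM in the control group (median 121) and from 96.9 to 138 FPKM in the hypertensive-LVH group (median 117). Here 5 hypertensive-LVH samples lay below all controls and the rest lay inside the control range. The log2 fold change was -0.07 (SE 0.057, limma adjusted p = 0.370, 95% interval -0.18 to 0.05).

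*Dtna* encodes alpha-dystrobrevin, which binds dystrophin and the syntrophins on the inner face of the membrane. It ranged from 25.2 to 33.3 FPKM in the control group (median 27.9) and from 23.4 to 30.6 FPKM in the hypertensive-LVH group (median 28.8). The groups overlapped over most of their range, and the log2 fold change was -0.03 (SE 0.050, limma adjusted p = 0.699, 95% interval -0.13 to 0.08).

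*Sspn* encodes sarcospan, a protein with several membrane-spanning segments that associates with the sarcoglycans. It ranged from 49.9 to 72.8 FPKM in the control group (median 67.1) and from 50.6 to 66.7 FPKM in the hypertensive-LVH group (median 58.9). All 12 hypertensive-LVH samples lay below the control median, and 6 controls lay above all hypertensive-LVH samples. The means were 65.0 ± 6.71 and 58.4 ± 5.62 FPKM (SD, n = 12 each). *Sspn* was downregulated by a log2 fold change of -0.15 (SE 0.059, limma adjusted p = 0.0499). Control 3 had the lowest value of all 24 samples.

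The call for *Sspn* sat at the threshold, and 18 of the 24 fits that left out 1 sample lost it, with adjusted p up to 0.0906. It was kept only without control 3 or 11 or without hypertensive-LVH 1, 2, 3 or 11. Without control 3 the log2 fold change was -0.18 (limma adjusted p = 0.00934). In that fit *Sspn* was the only member called, 1 of 8 against 31.2% of all genes.

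**Figure D2:**
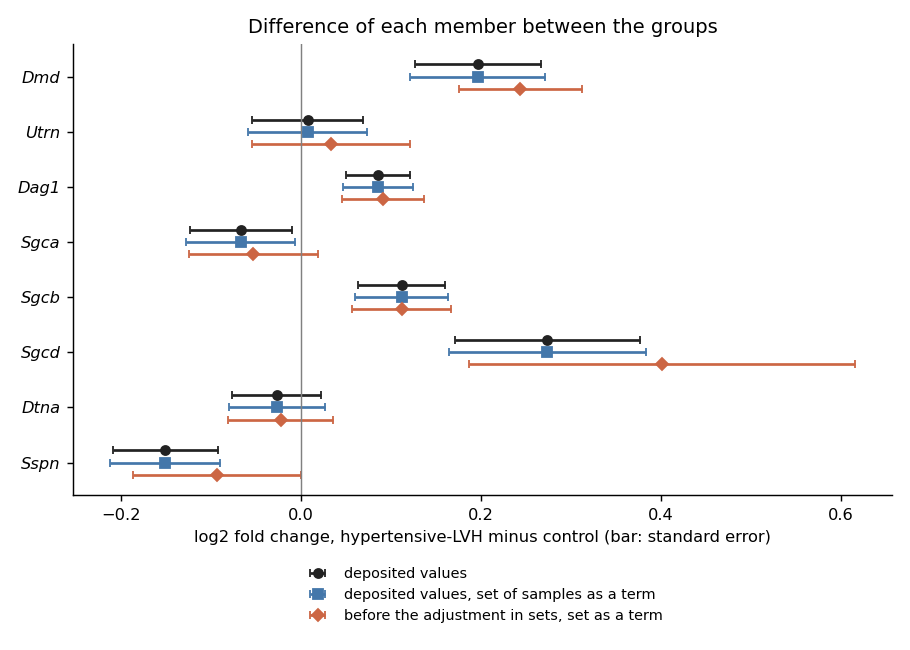
The log2 fold change of each member (hypertensive-LVH minus control, horizontal axis) is plotted with its standard error from the deposited values, from a fit that adds the set of samples as a term, and from the values before the adjustment in sets. *Dmd* lay at 0.20 and 0.24 on the deposited and earlier scales, and *Sgcd* at 0.27 and 0.40 with an SE of 0.215 on the earlier scale.

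The sets of samples were examined because the deposited values had been adjusted within them. With the set added as a term, 0 of 8 members passed against 27.9% of all genes, and limma adjusted p was 0.0539 for *Dmd*, 0.0640 for *Sgcd* and 0.0679 for *Sspn*. With set as a term, 5 of 8 members had an unadjusted p under 0.05, and 40.8% of all genes did. Differences within each set before the adjustment could be recovered for all 8 members from the spacing of the values. A fit of these recovered values with the set as a term called *Dmd* alone, 1 of 8 against 26.7% of the 13532 genes recovered. Its log2 fold change was 0.24 (SE 0.068, limma adjusted p = 0.0129). That of *Sgcd* was 0.40 (SE 0.215, adjusted p = 0.161), and that of *Sspn* was -0.09 (SE 0.093, adjusted p = 0.463). On this scale control 3 lay farther below the other controls, and without it the log2 fold change was 0.20 for *Dmd* (adjusted p = 0.0124), 0.18 for *Sgcd* (adjusted p = 0.0526) and -0.19 for *Sspn* (adjusted p = 0.00200).

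The differences within each set rest on 3 samples per group. *Dmd* was higher with ANG II in 4 of 4 sets, by 5.86 FPKM in samples 1 to 3, 1.32 in 4 to 6, 1.07 in 7 to 9 and 5.16 in 10 to 12. Before the adjustment these differences were 5.77, 2.26, 2.87 and 5.42 FPKM. The first and last values each leaned on 1 sample. Without control 3 the difference in samples 1 to 3 was 3.42 FPKM, and without hypertensive-LVH 12 that in samples 10 to 12 was 1.75 FPKM (3.20 and 2.36 FPKM before the adjustment). A set by treatment interaction for *Dmd* did not pass the limma test (p = 0.363, adjusted p = 0.560). A two-sided exact permutation test within the sets over all 160000 relabelings, unadjusted, gave p = 0.0114 for the deposited log2 values of *Dmd* and p = 7.5e-05 for its FPKM before the adjustment.

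*Sgcd* was also higher in 4 of 4 sets, but by only 0.0391 FPKM in samples 4 to 6 and by 2.58 to 4.01 FPKM in the other sets. Without control 3 its difference in samples 1 to 3 was 1.38 FPKM (0.247 before the adjustment), and without hypertensive-LVH 12 that in samples 10 to 12 was 1.03 FPKM (1.24 before the adjustment). The same exact test gave p = 0.00825 for the deposited values and p = 0.00748 before the adjustment. *Dag1* and *Sgcb* were higher in 4 of 4 sets on both scales, but without control 3 the difference of *Sgcb* in samples 1 to 3 was -0.420 FPKM (-1.22 before the adjustment). For *Dag1* the exact p was 0.0202 and 0.0295 before the adjustment, and for *Sgcb* it was 0.0391 and 0.0483. These p-values are for single genes, and over all genes *Dag1* and *Sgcb* were not called.

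For *Sspn* the difference, hypertensive-LVH minus control, was -9.33 FPKM in samples 4 to 6 and -15.2 FPKM in samples 7 to 9, against -0.824 FPKM in samples 1 to 3 and -1.06 FPKM in samples 10 to 12. Before the adjustment, samples 1 to 3 showed a higher value in the hypertensive-LVH group, by 3.36 FPKM. Control 3 decided this set, since without it the difference was -8.42 FPKM in the deposited values and -10.7 FPKM before the adjustment. In samples 10 to 12 it was 1.48 FPKM without hypertensive-LVH 12 (-0.238 before the adjustment). The interaction of set and treatment did not pass for *Sspn* (limma p = 0.110, adjusted p = 0.304). The exact test gave p = 0.0256 for the deposited values and p = 0.213 before the adjustment. *Utrn* also changed direction in samples 1 to 3, from 0.343 FPKM to -0.437 FPKM. Of the 32 set differences of the members, these 2 changed sign before the adjustment and the others kept theirs. For *Utrn* the exact p was 0.922 for the deposited values and 0.851 before the adjustment.

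*Sgca* and *Dtna* went in opposite directions in different sets. *Dtna* was higher in all 3 hypertensive-LVH samples than in all 3 controls of samples 1 to 3 (mean difference 3.91 FPKM), and lower in all 3 than in all 3 controls of samples 4 to 6 (mean difference -4.33 FPKM). For *Sgca* the difference was 14.1 FPKM in samples 1 to 3 and -24.1 FPKM in samples 4 to 6. A set by treatment interaction, tested with limma, was called for 0 of 8 members against 7.49% of all genes. The interaction had an unadjusted p under 0.05 for 1 member against 25.0% of all genes. This was *Dtna* (p = 0.0375, adjusted p = 0.172), and for *Sgca* p was 0.0525 (adjusted p = 0.205). Over all sets the exact p was 0.283 for *Sgca* and 0.613 for *Dtna*.

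**Figure D3:**
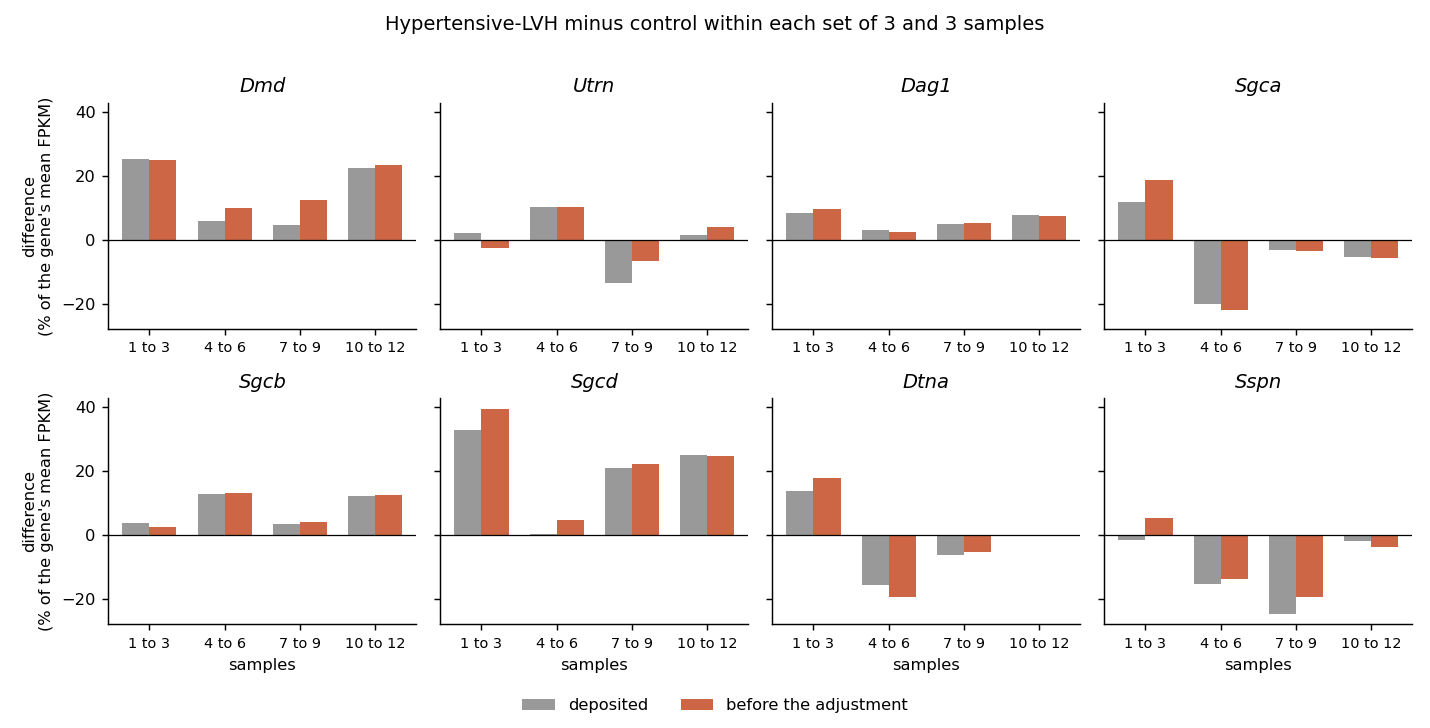
Bars give the hypertensive-LVH minus control difference within each set of 3 and 3 samples, as a percent of the gene's mean FPKM, for the deposited values (grey) and before the adjustment (orange). *Dmd*, *Dag1*, *Sgcb* and *Sgcd* lie above 0 in 4 of 4 sets on both scales, while *Sgca* and *Dtna* lie above 0 in samples 1 to 3 and below 0 in the other 3 sets.

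Correlations between the members within the groups were also computed. After removing group means, 11 of the 28 pairs of members passed an adjusted p under 0.05 by Pearson's r over 24 samples, 10 of them positive, and 7 passed by Spearman's rho (permutation tests with 100000 resamples). The smallest r called was 0.435 in size. Of the 65637153 pairs of genes with a mean of at least 1 FPKM, 26.6% had an r at least that large. That share counts size alone and is not a like measure for the 11 pairs called. Of the member pairs not called, *Dmd* with *Sspn* (0.437), *Dag1* with *Sgcd* (0.439) and *Sgca* with *Sgcb* (-0.477) were that large too. Single genes outside the complex, led by *Spag9* (r = 0.95), followed *Dmd* more closely than any member did. They are the highest of 11458 genes compared, so they are no like measure for 8 members. Whether these correlations are particular to the complex was not tested. *Dmd* and *Sgcd* were the closest pair, with r = 0.87 and rho = 0.78 (permutation p = 1e-05, the smallest the resamples can give, and 4e-05; adjusted p = 0.00028 and 0.00112). Without the 2 samples farthest in *Dmd*, control 3 and hypertensive-LVH 12, r was 0.77 with the group means of all 24 samples kept and 0.75 with group means taken over the 22 left, and it was 0.90 after removing the mean of each group in each set. *Dmd* and *Sgcb* had r = 0.73 and rho = 0.74 (permutation p = 0.00014 and 1e-04; adjusted p = 0.0014 for both), and r = 0.69 without the same 2 samples.

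*Utrn* followed *Dmd* between samples although the group means of *Utrn* did not pass the test. The pair had r = 0.71 and rho = 0.54 (permutation p = 0.00022 and 0.00785; adjusted p = 0.00154 and 0.0329), and r = 0.56 without control 3 and hypertensive-LVH 12. *Utrn* and *Sgcb* had r = 0.67 and rho = 0.67 (permutation p = 0.00015 and 0.00059; adjusted p = 0.0014 and 0.00551), and r = 0.69 without control 2 and control 3. *Utrn* and *Sgca* were the negative pair, with r = -0.43 and rho = -0.57 (permutation p = 0.0178 and 0.00506; adjusted p = 0.0452 and 0.0283), but r was 0.09 after quantile normalization. *Sgca* and *Dtna* had r = 0.60 and rho = 0.65 (permutation p = 0.003 and 0.00124; adjusted p = 0.0131 and 0.00868), and r = 0.58 without hypertensive-LVH 2 and 6. Their r was 0.39 after removing the mean of each group in each set, 0.30 among controls and 0.78 among hypertensive-LVH samples.

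Another 5 pairs passed by r. *Dag1* and *Sspn* had r = 0.67 and rho = 0.47 (permutation p = 0.00061 and 0.0252; adjusted p = 0.00342 and 0.0882), and r = 0.49 without control 3 and hypertensive-LVH 6. *Sgcb* and *Sgcd*, the core sarcoglycans, had r = 0.54 and rho = 0.55 (permutation p = 0.00656 and 0.00822; adjusted p = 0.0230 and 0.0329), and r = 0.65 without control 6 and hypertensive-LVH 7. Without control 3 and hypertensive-LVH 12 it did not pass (r = 0.44, permutation adjusted p = 0.164). This was the only one of the 5 that also passed by rho.

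*Sgcd* and *Sspn* had r = 0.55 and rho = 0.42 (permutation p = 0.0115 and 0.0448; adjusted p = 0.0358 and 0.125), and r = 0.39 without control 3 and hypertensive-LVH 12. *Utrn* and *Sgcd* had r = 0.67 and rho = 0.41 (permutation p = 0.00327 and 0.0519; adjusted p = 0.0131 and 0.132), and *Utrn* and *Sspn* had r = 0.52 and rho = 0.30 (permutation p = 0.0161 and 0.163; adjusted p = 0.0451 and 0.352). Without control 2 and control 3 these fell to r = 0.33 and r = 0.16. Without control 3 and hypertensive-LVH 12, *Utrn* with *Sgcd* (r = 0.36, permutation adjusted p = 0.247), *Utrn* with *Sspn* (r = 0.29, adjusted p = 0.350) and *Sgcd* with *Sspn* (r = 0.38, adjusted p = 0.228) did not pass either. After removing the mean of each group in each set r was 0.83 for *Utrn* with *Sgcd* and 0.55 for *Utrn* with *Sspn*, and among hypertensive-LVH samples alone it was 0.46 and 0.14. These coefficients thus depended on which samples and means were removed. *Dmd* and *Sspn*, called in opposite directions between the groups, had r = 0.44 and rho = 0.33 within them (permutation p = 0.0377 and 0.122; adjusted p = 0.0778 and 0.285), and r = 0.35 without control 3 and hypertensive-LVH 12.

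**Figure D4:**
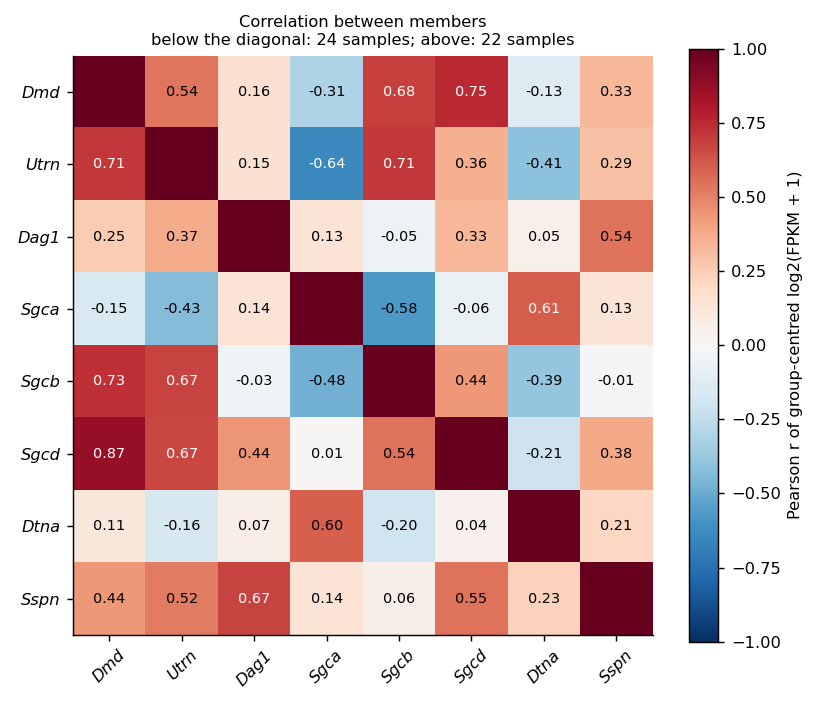
The heatmap gives Pearson's r of log2(FPKM + 1) between each pair of members after removing group means, below the diagonal over 24 samples and above it over 22 samples without control 3 and hypertensive-LVH 12, with red for positive and blue for negative values. The block of *Dmd*, *Utrn*, *Sgcb* and *Sgcd* is positive on both sides, and *Dmd* with *Sgcd* goes from 0.87 to 0.75, with group means taken over the 22 samples.

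Control 3 lay apart from the other samples in genes with long transcripts. Over 276 genes whose longest annotated transcript reached 10 kb, it had the lowest median deviation of log2 values (-0.304). Hypertensive-LVH 10 (-0.16) and 7 (-0.138) were the next lowest. Hypertensive-LVH 12 had the highest (0.147), close to control 2 (0.122). Over 1245 genes under 1.5 kb the order was turned, with 0.28 in control 3 and -0.217 in hypertensive-LVH 12. Over the 9912 genes between these lengths neither sample stood apart, with 0.0154 in control 3 and -0.0285 in hypertensive-LVH 12. All members but *Dmd* and *Utrn* were in that class. The longest transcript was 14.9 kb for *Dmd*, 12.4 kb for *Utrn*, 6.29 kb for *Dtna*, 5.66 kb for *Dag1*, 4.51 kb for *Sspn*, 4.45 kb for *Sgcd*, 3.79 kb for *Sgcb* and 1.72 kb for *Sgca*. Between the groups the median log2 difference was 0.0811 for the long genes, 0.0629 for those between and -0.0317 for the short genes. The part of transcript length in the differences and correlations of the members was not tested.

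Markers of cell types differed between the groups as well. Over all genes tested, 20.9% were upregulated and 12.6% downregulated. Of 11 cardiomyocyte markers 1 was upregulated and 6 were downregulated, and their sum lay between 50406 and 64317 FPKM in controls and between 38427 and 55636 FPKM in hypertensive-LVH samples. All 8 macrophage markers were upregulated, with sums from 172 to 378 FPKM and from 237 to 701 FPKM. Without samples 4 to 6, 0 of 8 were called, with log2 fold changes from 0.178 (*Csf1r*) to 0.762 (*Cd68*). That fit rests on fewer samples, and its share of all genes called is not given here. Control 3 had the highest macrophage sum of the control group and hypertensive-LVH 12 the lowest of its group. Of 8 fibroblast markers 4 were upregulated, with median sums of 887 and 1264 FPKM in ranges from 25.1 to 1017 FPKM and from 708 to 2639 FPKM, and 1 of 8 was called without samples 4 to 6. None of these markers had a group mean of 0, and their part in the differences of *Dmd*, *Sgcd* and *Sspn* was not tested.

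Beyond the 8 members, 48 other genes of the pathway were tested, and 8 were upregulated and 6 downregulated against the 33.5% of all genes called. After quantile normalization the split was 5 upregulated and 10 downregulated. That scaling also moved log2 fold changes down across the whole table, from a median of 0.05 to -0.01. The shares of the table called in each direction after it are not given here. Among 6 other subunits 0 passed the limma test and 1 had an unadjusted p under 0.05 against 44.7% of all genes, and the median log2 fold change was 0.14. *Sgce*, for epsilon-sarcoglycan, had group means of 9.99 FPKM in controls and 12.0 FPKM in hypertensive-LVH samples (log2 fold change 0.23, SE 0.118, adjusted p = 0.128). *Sntb1*, for a syntrophin, had 1.39 and 1.63 FPKM (adjusted p = 0.116), and it was called in the values before the adjustment (log2 fold change 0.17, adjusted p = 0.0446). *Sntg2*, for another syntrophin, had 0.162 and 0.310 FPKM (adjusted p = 0.0797) and held 3 negative values. Without samples 4 to 6 the log2 fold change was -0.00760 for *Sgce*, 0.0286 for *Sntb1* and -0.000762 for *Sntg2*.

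Among 11 dystroglycan ligands, the basement membrane proteins that alpha-dystroglycan holds, 4 were upregulated and 1 was downregulated, against 20.9% and 12.6% of all genes. The median log2 fold change was 0.18. The laminin chains *Lamb1* (0.30, SE 0.071, limma adjusted p = 0.00255) and *Lamc1* (0.25, SE 0.084, adjusted p = 0.0258) were upregulated. The heparan sulfate proteoglycans *Agrn* (agrin, 0.25) and *Hspg2* (perlecan, 0.22) were upregulated too, with adjusted p = 0.0416 and 0.0338. Both lost the call with the set as a term (adjusted p = 0.0640 and 0.0537) and before the adjustment (adjusted p = 0.0566 and 0.0550). *Agrn* also lost it in 11 of the 24 fits without 1 sample (hypertensive-LVH 1, 4, 5, 6, 8 or 11, or control 1, 4, 5, 6 or 11) and *Hspg2* in 6 (hypertensive-LVH 4, 5 or 11, or control 4, 5 or 11), with adjusted p up to 0.0761 and 0.0623. *Egflam*, for pikachurin, fell from 5.12 to 3.18 FPKM, a log2 fold change of -0.55 (SE 0.078, adjusted p = 1.5e-05). Without samples 4 to 6, 0 ligands were called higher and *Egflam* was called lower. The share of all genes called in that fit, which rests on fewer samples, is not given here. *Lama2*, the laminin chain of muscle, had group means of 22 and 23.7 FPKM (adjusted p = 0.185).

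Among 14 genes that build the sugar chain on alpha-dystroglycan, 1 was upregulated and 4 were downregulated, against 20.9% and 12.6% of all genes. The median log2 fold change was -0.05. The downregulated genes were *Pomgnt2* (-0.28), *B4gat1* (-0.24), *Pomt1* (-0.24) and *Dolk* (-0.23), with limma adjusted p from 0.000263 to 0.00127. *Pomt1* starts the chain by adding mannose, *Pomgnt2* extends it, *B4gat1* adds glucuronic acid, and *Dolk* makes the lipid that carries the mannose. All 4 were also called with the set as a term and in all 24 fits without 1 sample. *Pomgnt1*, which extends another branch of the chain, was upregulated by 0.15 (adjusted p = 0.0168). In the values before the adjustment *Pomgnt1* lost its call (adjusted p = 0.0627), and 3 of the 4 downregulated genes kept theirs (*B4gat1* could not be recovered).

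Among 17 partners at the sarcolemma and cytoskeleton, 3 were upregulated and 1 was downregulated, against 20.9% and 12.6% of all genes. The median log2 fold change was 0.09. *Des* (desmin, the intermediate filament of muscle) was upregulated from 1164 to 1655 FPKM, a log2 fold change of 0.50 (SE 0.060, limma adjusted p = 3.03e-06). The integrin chain *Itgb1*, which binds laminin beside dystroglycan, was upregulated by 0.28 (adjusted p = 0.000803), and *Vcl* (vinculin, which ties actin to the membrane) by 0.21 (adjusted p = 0.00124). *Itgb1bp2* (melusin, an integrin-binding protein of muscle) was downregulated, with a log2 fold change of -0.18 (adjusted p = 0.0285). It lost the call without control 3 (adjusted p = 0.0508), control 4 or hypertensive-LVH 6 (adjusted p up to 0.0543), and in the values before the adjustment (adjusted p = 0.0953). *Itga7*, the alpha chain of the muscle laminin receptor, had 63.0 and 59.1 FPKM (adjusted p = 0.239).

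**Figure D5:**
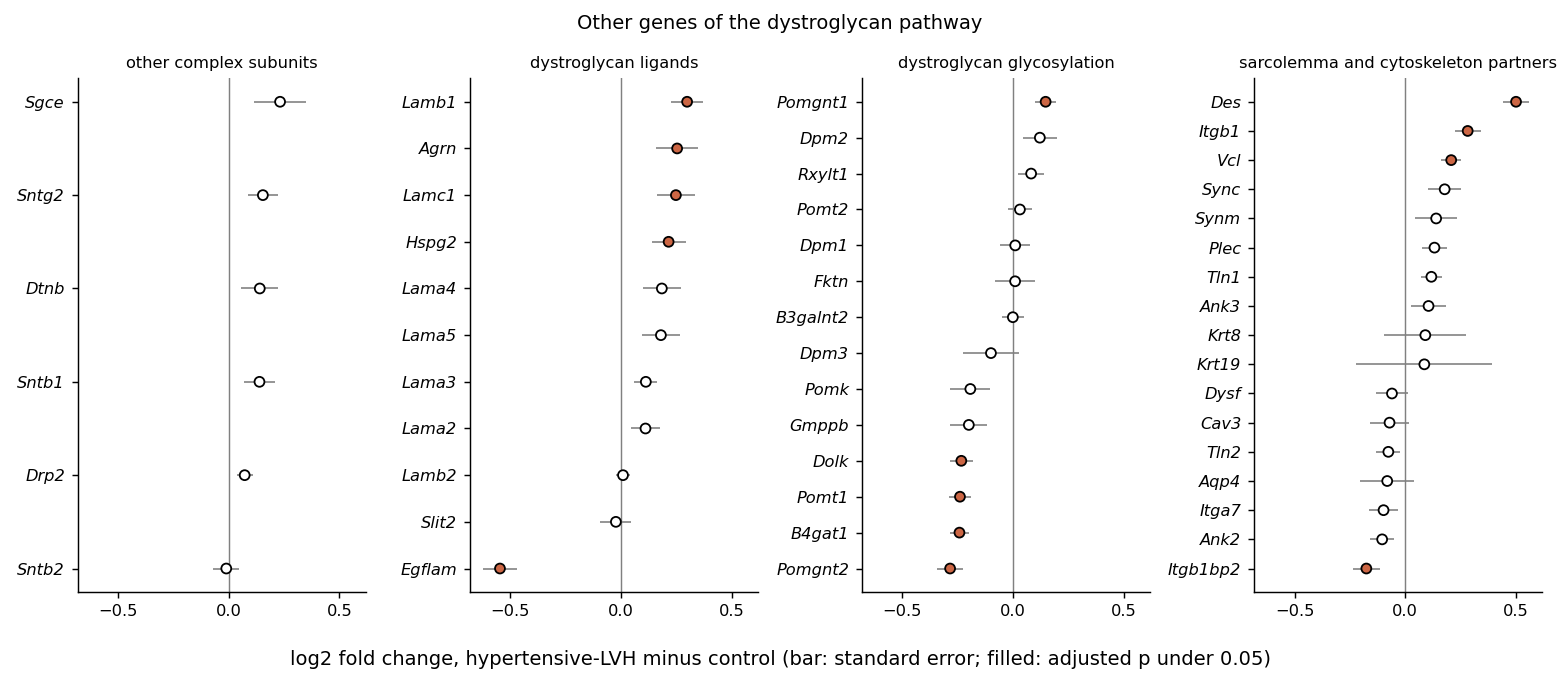
The log2 fold change of each other pathway gene (hypertensive-LVH minus control, horizontal axis) is plotted with its standard error in 4 lists, and filled points have an adjusted p under 0.05. *Egflam* lies farthest to the left at -0.55 and *Des* farthest to the right at 0.50, and 4 filled points of the glycosylation list lie left of 0.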

How the data were processed

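RNA selected with oligo(dT) from 24 left ventricles was sequenced on an Illumina platform, and the submitters' processing notes name HISAT, Bowtie2 and RSEM without versions. The authors deposited 1 table of FPKM per gene and sample. Its values are FPKM adjusted in 4 sets of samples, read from exact ties (218 to 546 genes tied per pair within a set and group, 0 to 12 between sets), a step that the methods do not name. For each gene the values could be written as a common group difference, left untouched, plus a remainder that each set shifts and multiplies by its own factor. Solving it on steps of 0.01 FPKM recovered 13532 of 14026 genes (96.5%). It gives differences within a set, not the offset of a set. For fits on these values the recovered values were placed around the deposited mean of each set. Depth and counting error are unknown.

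Negative values were set to 0, genes with a mean of at least 0.1 FPKM were tested on log2(FPKM + 1) with limma 3.58.1 (intensity trend, R 4.3.3), and p-values were adjusted by Benjamini-Hochberg over all 14026 genes. Means and SD use the deposited values. Exact within-set tests and correlations used Python 3.11.15, numpy 2.4.6, pandas 2.3.3 and scipy 1.17.1. The limma step was tested on simulated data. All tests were two-sided. Alternatives changed the added constant, filter, scaling, trend, test and samples, or added the replicate number as a block or the set as a term. Settings that leave out control 3 and hypertensive-LVH 12 together, control 3 before the adjustment or either sample within its set, and those of the other pathway genes without control 3 or before the adjustment, were chosen after seeing the data.

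The members and the gene lists were chosen with earlier results of these data known. Named genes are all members and, of each other list, the called genes with the largest changes, and the 5 genes most like *Dmd* and *Utrn*. *Sgce*, *Sntb1*, *Sntg2*, *Lama2* and *Itga7* were named after their values were seen. *Sgcz*, *Sntg1* and *Lama1* were not analysed here, and *Nos1* was below the filter. *Rxylt1* is listed under the older symbol Tmem5. Some genes of the pathway lists are not reported here. Promoter windows from RefSeq matched 7 members.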

Additional observations from a re-analysis of the deposited data

Results flagged for a closer look

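*Dtna* (alpha-dystrobrevin) is listed here because its groups lay apart in opposite directions in different sets of samples. Groups of 3 and 3 samples also lay apart for *Dmd* (samples 1 to 3), *Utrn* and *Sgca* (samples 4 to 6) and *Sspn* (samples 4 to 6 and 7 to 9). The share of all genes with such a separation is not given here. In samples 1 to 3 the 3 hypertensive-LVH values (29.6, 29.6 and 30.6 FPKM) were all above the 3 control values (26.3, 25.2 and 26.6 FPKM). In samples 4 to 6 the 3 hypertensive-LVH values (26.3, 25.7 and 25.9 FPKM) were all below the 3 control values (33.3, 29.4 and 28.3 FPKM). The test of the difference between sets, a set by treatment interaction over all 4 sets with limma, gave an adjusted p of 0.172 (unadjusted p = 0.0375), so it did not pass the threshold. Before the adjustment the difference was 5.04 FPKM in samples 1 to 3 and -5.41 FPKM in samples 4 to 6.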

How the results depend on the processing

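Each member's result was recomputed under 17 settings and in 24 fits that each left out 1 sample. The number of members called was 3 as reported, and also with a mean of at least 1 FPKM and with the exact rank-sum test. It was 2 with 0.1 added before the logarithm, with no filter, with no intensity trend, and before the adjustment without control 3 or without control 3 and hypertensive-LVH 12. It was 1 with median-ratio scaling, quantile normalization, without samples 1 to 3, without samples 7 to 9, before the adjustment in sets, and without control 3 and hypertensive-LVH 12 together. It was 0 with the set as a term, without samples 4 to 6, without samples 10 to 12 and with the replicate block. The share of all genes called was 33.5% as reported and 29.7% with the exact rank-sum test. It was 27.9% with the set as a term and 26.7% before the adjustment. The share in fits without a set of samples, which rest on fewer samples, is not given here. Leaving out 1 sample gave 0 to 4 members called. The DEG criteria gave 0 throughout. *Dmd* was called in 9 of the 17 settings, *Sgcd* in 4 and *Sspn* in 8, and the direction of these 3 members was kept in all of them.

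*Dmd* missed the threshold at a log2 fold change of 0.17 (median-ratio scaling), 0.15 (quantile normalization), 0.20 (set as a term), 0.14 (without samples 1 to 3), 0.24 (without 4 to 6), 0.17 (without 10 to 12) and 0.12 (without control 3 and hypertensive-LVH 12). *Sgcd* missed it at 0.24 (median-ratio scaling), 0.21 (quantile normalization), 0.27 (exact rank-sum test, set as a term), 0.20, 0.36, 0.27 and 0.26 (without samples 1 to 3, 4 to 6, 7 to 9 and 10 to 12), 0.17 (without control 3 and hypertensive-LVH 12), 0.40 (before the adjustment), and before the adjustment 0.18 without control 3 and 0.14 without both samples. *Sspn* missed it at -0.15 (0.1 added before the logarithm, no filter, no intensity trend, set as a term), -0.13 (without samples 4 to 6), -0.0814 (without 7 to 9), -0.19 (without 10 to 12) and -0.0935 (before the adjustment). *Dag1* was called by the exact rank-sum test (0.0856). The cause of these changes was not tested.

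The sign turned for *Utrn* with median-ratio scaling (-0.0223), quantile normalization (-0.0533), without samples 1 to 3 (-0.00859) or 4 to 6 (-0.0369), without control 3 and hypertensive-LVH 12 (-0.0427), and before the adjustment without control 3 (-0.0373) or without both samples (-0.0500). Without samples 4 to 6 it also turned for *Sgca* (0.00854) and *Dtna* (0.0346). None of these values was called before or after.

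In the fits without 1 sample the log2 fold changes ranged from 0.15 to 0.22 for *Dmd*, -0.0332 to 0.0343 for *Utrn*, 0.0701 to 0.0995 for *Dag1*, -0.0890 to -0.0426 for *Sgca*, 0.0910 to 0.132 for *Sgcb*, 0.20 to 0.30 for *Sgcd*, -0.0415 to -0.00525 for *Dtna* and -0.18 to -0.13 for *Sspn*.

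The replicate numbers did not pair the samples. Deviations of same-numbered samples from their group means correlated between -0.557 and -0.00109, with 0 of 12 pairs over 0.1. The replicate block called 2824 genes in place of 4697, and under it *Dmd* (0.20), *Sgcd* (0.27) and *Sspn* (-0.15) kept their values with adjusted p = 0.0787, 0.0984 and 0.127. Of the 28 pairs of members, 11 correlated as reported, 7 after removing the mean of each group in each set, and 8 to 14 otherwise. The 48 other pathway genes gave 10 to 15 calls, the fewest before the adjustment (6 higher and 4 lower). Quantile normalization turned their split from 8 higher and 6 lower to 5 and 10. It also shifted the whole table, whose log2 fold changes had a median of 0.05 as reported and -0.01 after it. The shares of the table called higher and lower after it are not given here. Whether the turned split is particular to the pathway genes was not tested.

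With values adjusted in sets and no counts, the depth behind each value, and so the smallest detectable change of a member, is unknown.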

Other observations

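The genes most like *Dmd* across the 24 samples, by Pearson's r of log2(FPKM + 1) after removing group means among 11458 genes with a mean of at least 1 FPKM, were *Spag9* (r = 0.95), *Dcaf10* (0.94), *Nbeal1* (0.94), *Mpp5* (0.94) and *Zfp148* (0.93). Those most like *Utrn* were *Baz2b* (0.94), *Lrp6* (0.94), *Nin* (0.93), *Bbx* (0.93) and *Srpk2* (0.93). All 10 coefficients, picked as the highest found, were higher than that between *Dmd* and *Sgcd* (0.87), the closest pair among the members. After removing the mean of each group in each set they ranged from 0.92 to 0.96. These are descriptions over samples whose depth is unknown and whose sums of cell type markers differed, and control 3 and hypertensive-LVH 12 are among them.

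The group difference set aside in the adjustment was 7.66 FPKM for *Dmd*, while the differences recovered in its 4 sets lay between 2.26 and 5.77 FPKM, so the value set aside was larger than each of them. For *Utrn* the value set aside was 1.77 FPKM and the set differences lay between -1.10 and 1.72 FPKM. For *Sgcd* it was 2.90 FPKM, between the set differences of 0.58 and 4.83 FPKM.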
